A study of Mus musculus with 32 samples.

Results

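Neurotrophins are secreted growth factors that support the survival of neurons and change the strength of their synapses. Brain-derived neurotrophic factor (Bdnf) signals through the receptor tyrosine kinase TrkB (Ntrk2) and neurotrophin 3 (Ntf3) mainly through TrkC (Ntrk3), while sortilin (Sort1) sorts the precursor forms inside the cell and binds them at its surface. In the hippocampus Bdnf is made mostly by excitatory neurons, and the striatum receives most of its Bdnf protein along axons from the cortex. Bdnf, Ntf3, Ntrk2, Ntrk3 and Sort1 were taken from a count matrix of 54146 mouse genes as the 5 genes described here.

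Male C57BL/6J mice, 12 weeks old, gave 1 hemisphere of hippocampus or striatum per library. They were injected with CI-994, a class I histone deacetylase inhibitor (HDACi, 30 mg/kg into the peritoneum), or with the same solvent of dimethyl sulfoxide, Kolliphor and saline without it (vehicle). After 1 hour they underwent contextual fear conditioning (CFC), with 2 foot shocks of 0.2 mA, or the same time in the chamber with no shock (context), and tissue was taken 1 hour later. The 8 groups were hippocampus HDACi CFC, hippocampus HDACi context, hippocampus vehicle CFC, hippocampus vehicle context and the same 4 in striatum. Each group had 4 libraries from 4 biological replicates, 32 in all. Mice of 1 cage shared the behaviour, so cage and behaviour cannot be told apart, and the labels do not tie a hippocampus library to a striatum library of the same mouse.

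Hippocampus libraries held 26026024 to 36670767 counts each, and striatum libraries 27418127 to 33635025. Marker genes followed the region labels. In vehicle context mice, 10 of 10 forebrain excitatory neuron markers were higher and 15 of 15 medium spiny neuron markers were lower in hippocampus than in striatum. Hippocampus HDACi CFC replicates 2 and 4 stood apart, with 6270 and 6077 CPM (counts scaled to the library total) summed over 11 choroid plexus markers, against at most 439 CPM in the other 14 hippocampus libraries. In striatum, HDACi CFC replicate 2 and vehicle CFC replicate 3 stood apart by low medium spiny neuron markers, and values without these 4 libraries are given where a call or direction depends on them. Levels below are CPM of the library total. Log2 fold changes, their standard errors and adjusted p values are from edgeR's quasi-likelihood test over all genes of a region, and "called" means an adjusted p under 0.05. Folds are from the same fit. It scales libraries by TMM and not by their totals alone, so a fold can differ from the ratio of the CPM means beside it.

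Bdnf (ENSMUSG00000048482) lies on the plus strand of chromosome 2 from 109674700 to 109727007 in mm10, and its 11 annotated transcripts begin at 9 separate starts. RefSeq (GRCm38.p6) lists 7 starts for it. The stretches before a pair of them are shown, the windows of Bdnf with a match to a loose form of an activity-linked motif. Capitals mark a loose AP-1 form (TGANTCA, any base in the middle) and 2 GC boxes (GGGCGG) in the first. The middle base of the marked stretch is A, so it matches this loose form only. In the second they mark a short form of the cyclic AMP response element (TGACG). All were searched on both strands.
Bdnf, 250 bases before the start at 109677032, chr2:109676782-109677031, plus strand: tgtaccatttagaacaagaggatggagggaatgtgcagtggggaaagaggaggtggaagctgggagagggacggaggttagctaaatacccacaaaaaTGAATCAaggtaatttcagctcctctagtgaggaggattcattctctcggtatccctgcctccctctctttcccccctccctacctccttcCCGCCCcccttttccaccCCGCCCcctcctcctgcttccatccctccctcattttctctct
Bdnf, 250 bases before the start at 109692436, chr2:109692186-109692435, plus strand: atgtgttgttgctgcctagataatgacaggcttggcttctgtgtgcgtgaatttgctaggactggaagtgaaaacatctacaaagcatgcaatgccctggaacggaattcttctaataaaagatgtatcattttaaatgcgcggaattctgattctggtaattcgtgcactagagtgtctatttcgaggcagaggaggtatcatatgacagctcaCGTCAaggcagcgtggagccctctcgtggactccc
The loose AP-1 match begins 152 bases before its start and the short form 35 bases before its own. The loose AP-1 form was present in 6.75% of the 32851 RefSeq windows of this length in the mouse. The short form of the response element was present in 17.8% and a GC box in 32.7%. The full response element TGACGTCA, found in 1.55% of windows, had no match in the windows of Bdnf, Ntf3 or Ntrk2. The counts are per gene, so no start of Bdnf can be followed on its own here.

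In hippocampus the drug raised Bdnf after both behaviours. After CFC its level was 75.7, 64.5, 77.8 and 63.9 CPM in HDACi libraries 1 to 4, against 68.0, 45.4, 51.9 and 47.0 CPM in vehicle libraries 1 to 4. The groups overlapped through vehicle replicate 1, and the other 3 vehicle libraries lay below every HDACi library. The means were 70.5 ± 7.29 CPM with HDACi and 53.1 ± 10.3 CPM with vehicle (SD, n = 4 each). The fitted difference was 1.39-fold and called (log2 fold change 0.47, SE 0.14, adjusted p = 0.0217). This call rests on few libraries. It was lost when HDACi CFC replicate 1 (log2 fold change 0.43, adjusted p = 0.0603) or replicate 3 (0.42, adjusted p = 0.0593) was left out. It was also lost without vehicle CFC replicate 2 (0.41, adjusted p = 0.0581) or replicate 4 (0.42, adjusted p = 0.0720). HDACi replicates 2 and 4, the libraries with choroid plexus RNA, were the lower pair of their group, and without them the log2 fold change was 0.61 (adjusted p = 0.0234). Because tissue was measured in bulk, fewer cells of a type and less RNA per cell cannot be told apart in this or any other value.

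After context, Bdnf was 74.9, 58.4, 86.2 and 79.4 CPM in hippocampus HDACi libraries, against 53.1, 51.4, 58.2 and 47.1 CPM in vehicle libraries. The groups did not overlap, as for 24.6% of all genes tested in either direction, although HDACi replicate 2 was only just above vehicle replicate 3. The means were 74.7 ± 11.8 and 52.4 ± 4.59 CPM (SD, n = 4 each). The fitted difference was 1.51-fold (log2 fold change 0.59, SE 0.14, adjusted p = 0.00541), and the call held when any 1 library was left out. Replicates 1 and 2 of hippocampus differed from replicates 3 and 4 as sets, so the effect was also fitted within each set. In replicates 1 and 2 the log2 fold change of Bdnf was 0.38 after CFC (adjusted p = 0.255) and 0.44 after context (adjusted p = 0.213). In replicates 3 and 4 it was 0.58 (adjusted p = 0.0312) and 0.73 (adjusted p = 0.0119). The direction was higher with HDACi in both sets and both behaviours.

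Markers of excitatory neurons, which make Bdnf in hippocampus, are given beside these values. Over all genes tested 7.42% were called higher and 13.4% lower after CFC, and 6.55% higher and 13.2% lower after context. Of 10 forebrain excitatory markers 2 were called higher and 0 lower with HDACi after each behaviour. Their summed level ran from 6906 to 8157 CPM in HDACi CFC and 7266 to 8635 CPM in HDACi context libraries, against 6374 to 7708 CPM in vehicle CFC and 6305 to 7392 CPM in vehicle context libraries. Both pairs of ranges overlapped. The mean log2 level of the 10 markers after context was 7.49 to 7.68 with HDACi, against 7.23 to 7.45 with vehicle, and these ranges did not overlap. The part of these markers in the Bdnf and Ntf3 values was not tested.

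Ntf3 (ENSMUSG00000049107), on the minus strand of chromosome 6 from 126101412 to 126166910, showed the larger drug effect of the neurotrophin pair. One of its 2 RefSeq starts has no annotated exon in the 250 bases before it, and that window is shown for comparison with the Bdnf windows, with its single motif match, a GC box, in capitals.
Ntf3, 250 bases before the start at 126164960, chr6:126164961-126165210, minus strand: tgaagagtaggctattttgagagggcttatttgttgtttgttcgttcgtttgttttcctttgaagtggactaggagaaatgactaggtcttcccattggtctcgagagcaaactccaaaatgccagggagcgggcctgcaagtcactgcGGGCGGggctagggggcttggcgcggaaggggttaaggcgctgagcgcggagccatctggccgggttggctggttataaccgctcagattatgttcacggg
After CFC, Ntf3 was 7.47, 6.65, 6.22 and 7.10 CPM in hippocampus HDACi libraries, against 5.27, 4.11, 3.90 and 4.31 CPM in vehicle libraries. After context it was 8.49, 7.08, 6.77 and 7.77 CPM with HDACi, against 5.56, 3.74, 5.05 and 4.23 CPM with vehicle. Every HDACi library was above every vehicle library in both behaviours. Such separation of the groups, in either direction, was seen for 23.7% of all genes tested after CFC and 24.6% after context. Mean Ntf3 was 6.86 ± 0.542 CPM with HDACi and 4.40 ± 0.604 CPM with vehicle after CFC (SD, n = 4 each). The fitted difference was 1.63-fold (log2 fold change 0.71, SE 0.13, adjusted p = 0.00105). After context mean Ntf3 was 7.53 ± 0.764 and 4.65 ± 0.815 CPM, with a fitted difference of 1.71-fold (0.77, SE 0.13, adjusted p = 0.000472). Both calls held without any 1 library. The effect was of like size but not called within replicates 1 and 2 (0.67, adjusted p = 0.0990, and 0.83, adjusted p = 0.0563), and within replicates 3 and 4 it was called (0.75, adjusted p = 0.0257, and 0.73, adjusted p = 0.0293).

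**Figure D1:**
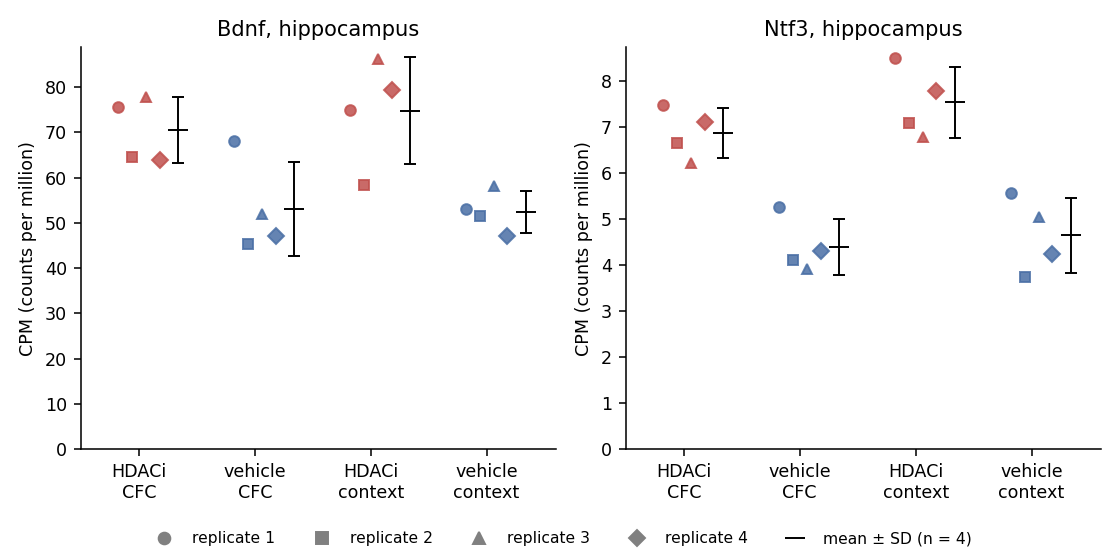
Level of Bdnf (left) and Ntf3 (right) in each hippocampus library, in CPM on an axis from 0, by group, with markers for the replicate number and the mean ± SD of 4 libraries beside them. Ntf3 of HDACi mice (red) lies above vehicle (blue) in every library, while Bdnf overlaps after CFC through vehicle replicate 1 at 68.0 CPM.

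The receptors changed far less. Ntrk2 (ENSMUSG00000055254, chromosome 13, plus strand, 58806569 to 59133970) was 699, 738, 737 and 752 CPM in hippocampus HDACi CFC libraries, against 633, 638, 675 and 717 CPM in vehicle CFC libraries. Only vehicle replicate 4 reached into the HDACi range. The difference was 1.15-fold and called (log2 fold change 0.20, SE 0.06, adjusted p = 0.0163), but the call was lost without vehicle CFC replicate 1 (0.18, adjusted p = 0.0559) and with scaling to library totals (0.14, adjusted p = 0.0793). After context, Ntrk2 was 687, 711, 696 and 730 CPM with HDACi, against 679, 684, 637 and 707 CPM with vehicle. These groups overlapped and the effect was not called (0.14, SE 0.06, adjusted p = 0.0839). It was called with the replicate number as a block, where same-numbered libraries deviated together (0.14, adjusted p = 0.0207). The Ntrk2 effect had the same sign within replicates 1 and 2 (0.26 after CFC and 0.12 after context) and within replicates 3 and 4 (0.15 and 0.17), with no call in any of these.

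Ntrk2 is also made by glia, and among these the oligodendrocyte precursor markers moved with the drug. In hippocampus 7 of 10 oligodendrocyte precursor markers were called higher with HDACi after each behaviour. Their summed level ran from 370 to 403 CPM in HDACi CFC and 348 to 428 CPM in HDACi context libraries, against 269 to 289 CPM in vehicle CFC and 258 to 297 CPM in vehicle context libraries. Of 12 astrocyte markers 1 was called higher after CFC and 2 after context. Over all genes tested 7.42% and 6.55% were called higher after CFC and context. No precursor marker was at 0 in any library. The part of these cells in the Ntrk2 values was not tested.

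Ntrk3 (ENSMUSG00000059146, chromosome 7, minus strand, 78175959 to 78738012) gave no call. It was 345, 312, 337 and 314 CPM in hippocampus HDACi CFC libraries, against 355, 272, 377 and 299 CPM in vehicle CFC libraries, so the HDACi values lay inside the vehicle range. The log2 fold change was 0.07 (approximate 95% interval −0.13 to 0.27, adjusted p = 0.701), and after context it was 0.10 (−0.10 to 0.30, adjusted p = 0.557). With offsets for GC content and length the CFC value was −0.02.

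Sort1 (ENSMUSG00000068747, chromosome 3, plus strand, 108284082 to 108361511) was higher with HDACi in all 4 drug comparisons. In hippocampus it was 957, 918, 963 and 903 CPM in HDACi CFC libraries, against 901, 771, 853 and 864 CPM in vehicle CFC libraries. Every HDACi library was above every vehicle library, HDACi replicate 4 only just above vehicle replicate 1. Such separation, in either direction, was seen for 23.7% of genes tested. The effect was 1.15-fold (log2 fold change 0.21, SE 0.06, adjusted p = 0.0312). That call was lost without any of 5 of the 8 libraries. These were HDACi CFC replicate 1 (0.19, adjusted p = 0.0804) and replicate 3 (0.19, adjusted p = 0.0766), and vehicle CFC replicates 2 (0.17, adjusted p = 0.0628), 3 (0.21, adjusted p = 0.0554) and 4 (0.22, adjusted p = 0.0524). After context Sort1 was 947, 948, 1008 and 1012 CPM with HDACi, against 841, 885, 921 and 865 CPM with vehicle. These groups did not overlap, as for 24.6% of genes tested in either direction. The effect was 1.18-fold (0.24, SE 0.06, adjusted p = 0.0149), and its call was lost without HDACi context replicate 4 (0.22, adjusted p = 0.0512). With scaling to library totals the effect was 0.14 after CFC (adjusted p = 0.0773) and 0.16 after context (adjusted p = 0.0527). The Sort1 effect within replicates 1 and 2 was 0.25 and 0.22, and within replicates 3 and 4 it was 0.18 and 0.26, with no call in any of these.

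In all, 4 of the 5 genes were called higher and 0 lower after CFC in hippocampus, where 7.42% of the 18261 genes tested were called higher and 13.4% lower. After context it was 3 higher and 0 lower, against 6.55% higher and 13.2% lower over all genes. The median log2 fold change over the 5 genes was 0.21 and 0.24, against 0.01 over all genes tested in each comparison. The 5 genes were chosen with earlier results of these data known. These counts and medians, and the counts for striatum below, are therefore a description and no test of the set.

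In striatum Sort1 was called higher with HDACi after both behaviours and Ntrk2 after CFC. Sort1 was 607, 549, 616 and 600 CPM in HDACi CFC libraries, against 478, 567, 531 and 562 CPM in vehicle CFC libraries. HDACi replicate 2 alone lay within the vehicle range, and the effect was called (log2 fold change 0.24, SE 0.07, adjusted p = 0.0139). The call was lost without vehicle CFC replicate 1 (0.19, adjusted p = 0.0519), with library totals (0.15, adjusted p = 0.0767), with no filter on low counts (0.23, adjusted p = 0.0596) and with the 2 groups fitted alone (0.24, adjusted p = 0.0766). After context Sort1 was 584, 619, 613 and 607 CPM with HDACi, against 543, 547, 519 and 538 CPM with vehicle. Every HDACi library was above every vehicle library, a separation seen for 30.3% of genes tested in this comparison, and the effect was 1.22-fold (0.29, SE 0.07, adjusted p = 0.00380). Within replicates 1 and 2 the Sort1 effect was 0.23 after CFC (adjusted p = 0.221) and 0.25 after context, not called, and within replicates 3 and 4 it was 0.22 (adjusted p = 0.0977) and 0.30 (adjusted p = 0.0417).

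Ntrk2 in striatum was 741, 878, 734 and 770 CPM in HDACi CFC libraries, against 635, 706, 737 and 683 CPM in vehicle CFC libraries. The groups overlapped by vehicle replicate 3 alone, and HDACi replicate 2, a library that stood apart, was the highest of all 32 for this gene. The effect was 0.26 (SE 0.07, adjusted p = 0.00765), and 0.24 without the libraries that stood apart (adjusted p = 0.0146). With library totals it was 0.18 (adjusted p = 0.0585). After context Ntrk2 was 721, 737, 709 and 778 CPM with HDACi, against 696, 673, 732 and 718 CPM with vehicle, and the effect was 0.18 (SE 0.07, adjusted p = 0.0584). With the replicate number as a block that effect was called (adjusted p = 0.0450). Within replicates 1 and 2 the Ntrk2 effect was 0.35 after CFC and 0.20 after context, and within replicates 3 and 4 it was 0.15 and 0.13, none of them called. Oligodendrocyte precursor markers again moved with the drug: 7 of 10 were called higher after CFC and 5 of 10 after context, with summed levels of 433 to 512 CPM in HDACi CFC and 392 to 476 CPM in HDACi context libraries, against 291 to 358 CPM in vehicle CFC and 293 to 347 CPM in vehicle context libraries. Their part in the striatal Ntrk2 values was not tested.

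Ntrk3 was not called in striatum. It was 311, 260, 334 and 295 CPM in HDACi CFC libraries, against 272, 289, 272 and 296 CPM in vehicle CFC libraries. Its log2 fold change was 0.18 after CFC (95% interval 0.00 to 0.35, adjusted p = 0.163) and 0.20 after context (0.03 to 0.37, adjusted p = 0.111). Leaving out HDACi CFC replicate 2, the lowest library, gave 0.23 after CFC (adjusted p = 0.0465), the one setting of those tried in which its striatal drug effect was called.

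Of the 4 genes tested in striatum, 2 were called higher after CFC and 1 after context, with 0 called lower. Over all 18256 genes tested in striatum, 9.57% were called higher and 14.6% lower after CFC, and 10.3% higher and 14.5% lower after context. The drug effect was also compared between regions in a fit of all 32 libraries. For Ntrk2, Ntrk3 and Sort1 the difference, hippocampus minus striatum, lay between −0.11 and −0.03 on the log2 scale after either behaviour, and none was called. The approximate 95% interval ran from −0.38 to 0.16 for Ntrk3 after context, the widest of these on the lower side. For Sort1 after CFC it ran from −0.21 to 0.14. Over all genes 0.266% had a called difference after CFC and 0.620% after context.

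**Figure D2:**
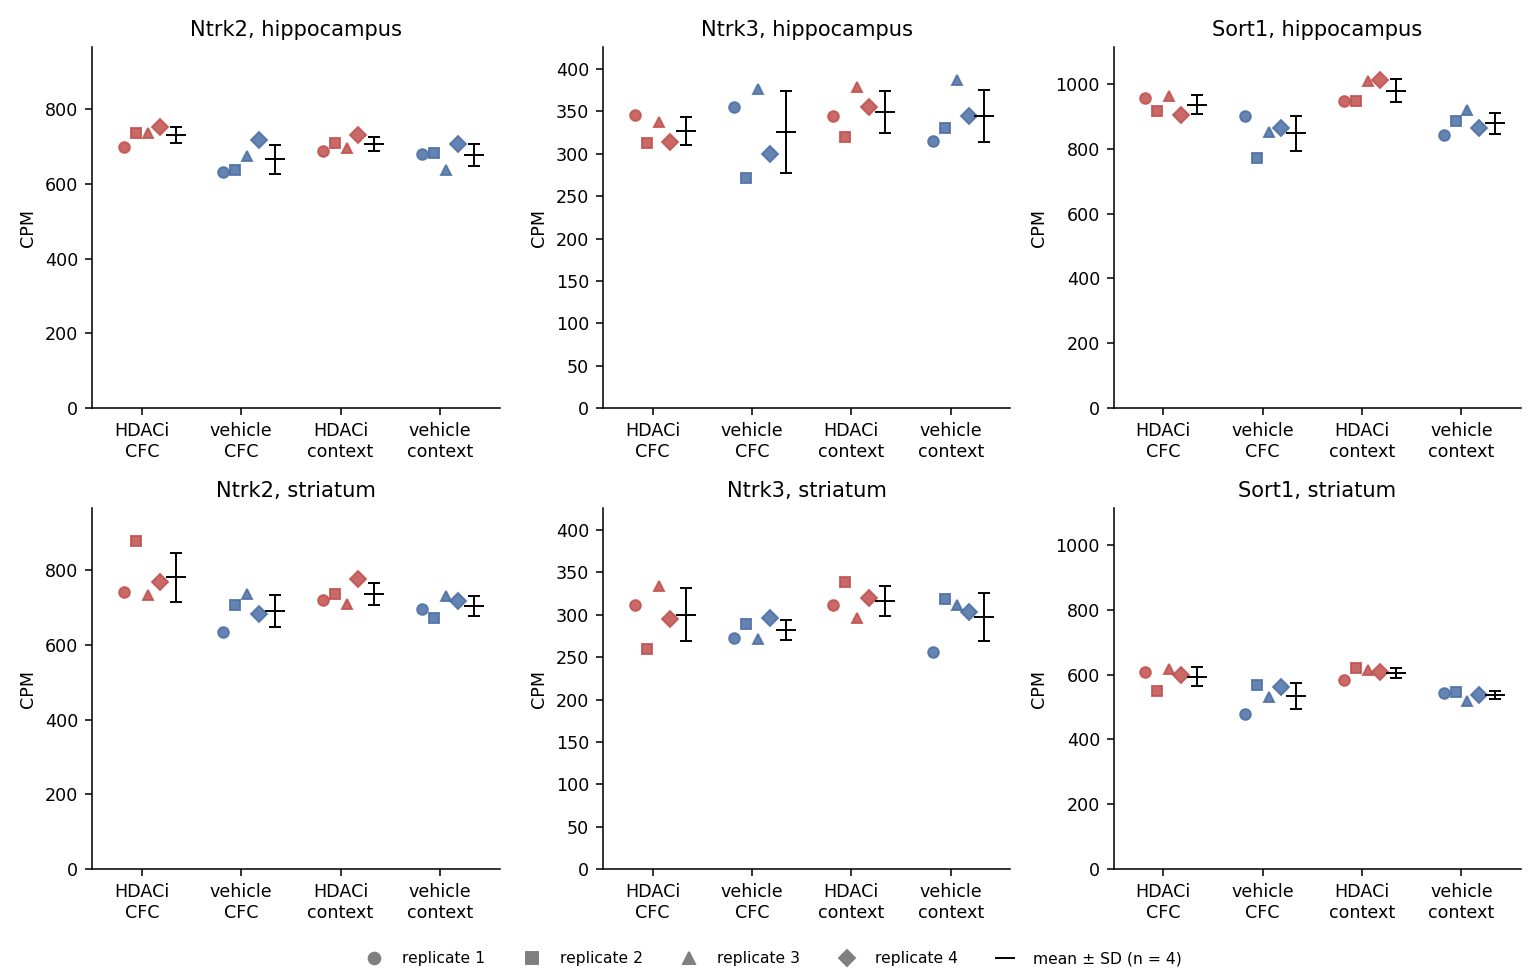
Level of Ntrk2, Ntrk3 and Sort1 in each library of hippocampus (top) and striatum (bottom), in CPM on axes from 0 that are the same for both regions of a gene, with the mean ± SD of 4 libraries. Sort1 was higher in hippocampus than in striatum in every library, while Ntrk2 and Ntrk3 overlapped between the regions. Of all genes tested, 41.1% did not overlap between the regions in vehicle context mice and 37.3% in vehicle CFC mice.

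**Figure D3:**
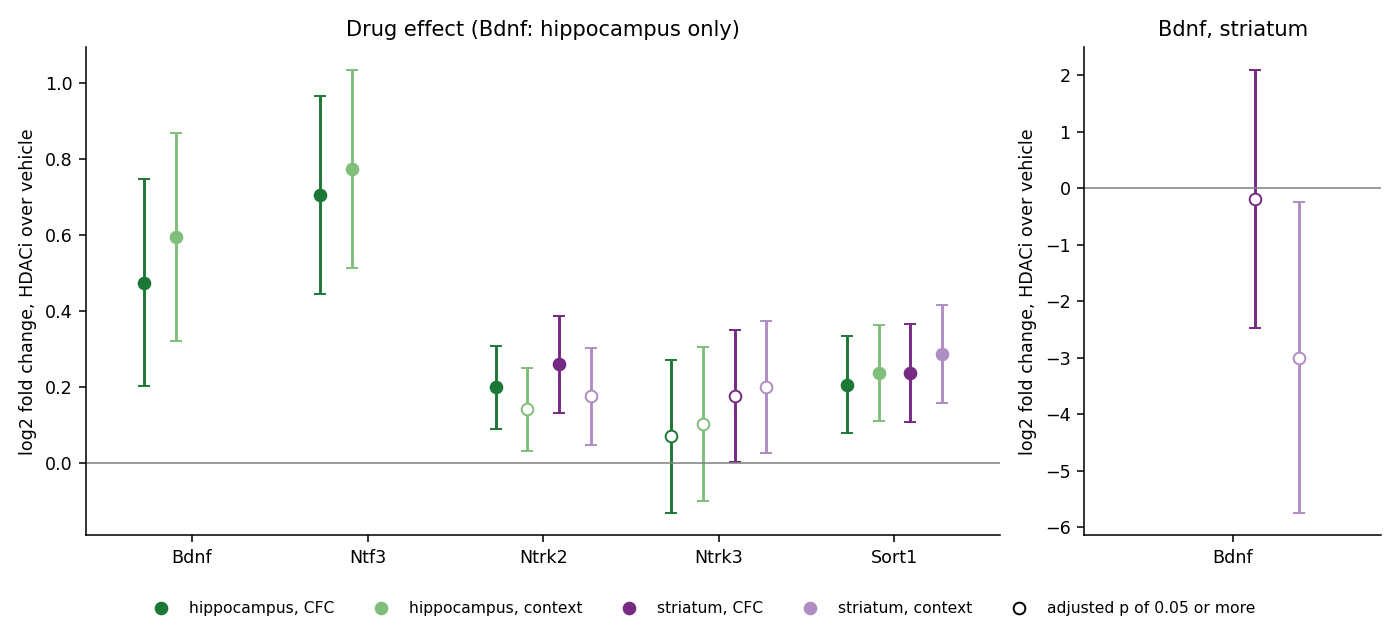
Log2 fold change of HDACi over vehicle for each gene, region and behaviour, with bars of 1.96 standard errors and open points where the adjusted p is 0.05 or more. Bdnf and Ntf3 in hippocampus lie highest, from 0.47 to 0.77, and the striatal Bdnf effects are drawn on their own axis because their bars span several log2 units.

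Bdnf in striatum differed more between libraries of 1 group than between group means, except in HDACi context, where all 4 libraries were low. It was 0.421, 8.35, 0.0720 and 7.05 CPM in HDACi CFC libraries, against 0.210, 0.474, 17.4 and 0.656 CPM in vehicle CFC libraries. It was 0.429, 0.398, 0.626 and 0.584 CPM in HDACi context libraries, against 6.83, 0.351, 1.70 and 8.95 CPM in vehicle context libraries. Over the 16 libraries 5 were above 5 CPM, 10 were below 1 CPM and 1 lay between, and all 4 HDACi context libraries were in the low set. The counts behind these values ran from 2 to 499 reads.

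Striatal Bdnf is given library by library because it can mark cortex carried over in the dissection. The 5 libraries with most Bdnf were vehicle CFC replicate 3, vehicle context replicate 4, HDACi CFC replicates 2 and 4 and vehicle context replicate 1. Slc17a7, the vesicular glutamate transporter of cortical and hippocampal excitatory neurons, was 348, 188, 257, 259 and 109 CPM in these libraries in that order, against 3.42 to 52.9 CPM in the other 11. Tbr1, a transcription factor of deep cortical layers, and Neurod6, a factor of forebrain excitatory neurons, each had their 5 highest values in the same 5 libraries. Tbr1 was at least 13.0 CPM there, against at most 8.36 CPM elsewhere. The summed level of 10 forebrain excitatory markers was also highest in these 5, at 2126 to 2742 CPM, against 1669 to 2055 CPM in the others, and of the 10 markers Neurod1 and Emx1 were at 0 in at least 1 striatum library. For the other lists, 4 of the 5 were among the 5 highest in the 12 neocortical markers, and 4 of the 5 among the 5 lowest in the 15 medium spiny neuron markers. The lowest medium spiny sums were 9213 CPM in HDACi CFC replicate 2 and 9688 CPM in vehicle CFC replicate 3. Hippocampal excitatory markers had their highest mean log2 levels in HDACi CFC replicates 2 and 4, at 4.52 and 4.04. The other libraries had 3.41 to 3.93. Their highest summed level was in HDACi context replicate 2, a library low in Bdnf, at 681 CPM. Carried-over cortex and carried-over hippocampus were not told apart, and the part of carried-over tissue in the Bdnf values was not tested.

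**Figure D4:**
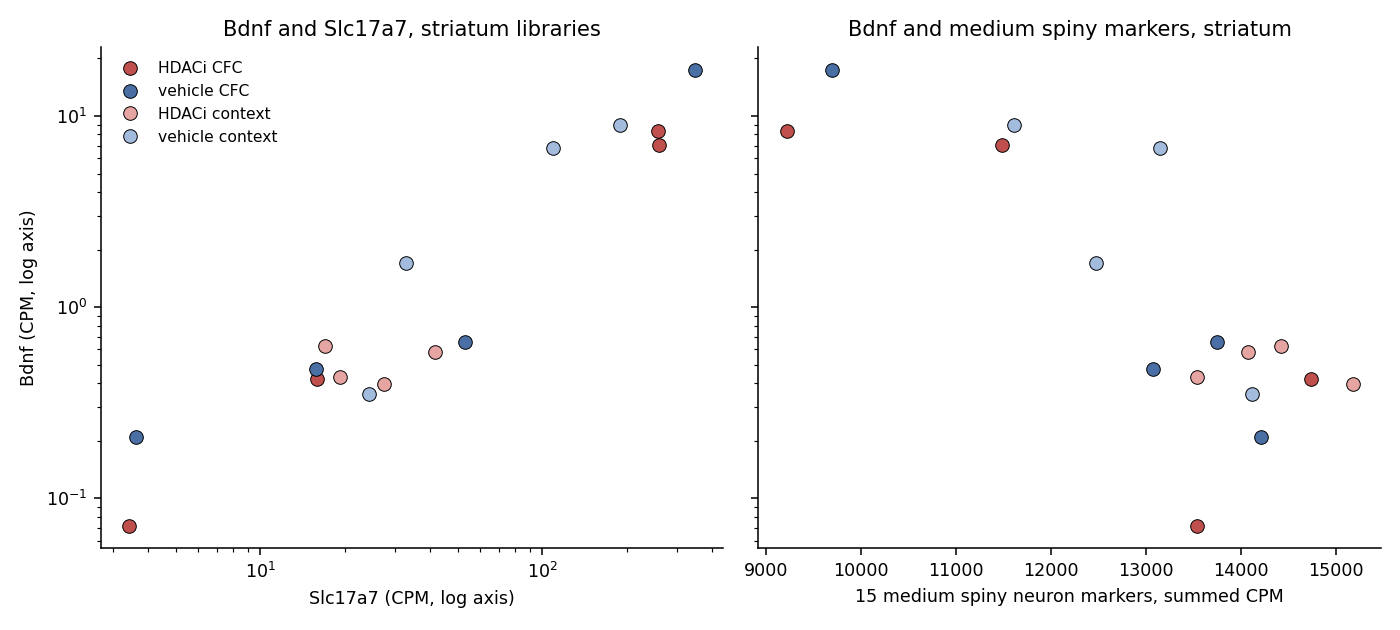
Bdnf in each of the 16 striatum libraries on a log axis of CPM, against Slc17a7 on a log axis of CPM (left) and against the summed CPM of 15 medium spiny neuron markers (right), coloured by group. The 5 libraries with Bdnf above 5 CPM have Slc17a7 of 109 to 348 CPM, and the other 11 have 3.42 to 52.9 CPM.

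Since the 16 libraries fell into separate sets, no correlation of Bdnf with a marker list was taken over all of them. The 10 libraries below 1 CPM were chosen by Bdnf itself and held 2 to 21 reads of it, so their relation is a description. Bdnf was not centred on group means, and its adjusted p pools it with 3 receptors taken over all 16 libraries. Among these 10, log2 Bdnf rose with the mean log2 level of the neocortical list (Pearson r = 0.81, permutation p = 0.00717, adjusted over 4 genes 0.0287). Spearman's rho was 0.70 (permutation p = 0.0312, adjusted p = 0.125), and r was 0.50 without the 2 libraries farthest from the median of the list, so the relation rests partly on those. Over all 16 libraries Pearson's r with the same list was 0.40 for Ntrk2 (permutation p = 0.122), −0.33 for Ntrk3 (p = 0.210) and −0.06 for Sort1 (p = 0.821), with adjusted p values of 0.243, 0.280 and 0.821. Spearman's rho was 0.33 for Ntrk2 (permutation p = 0.217), −0.34 for Ntrk3 (p = 0.196) and −0.07 for Sort1 (p = 0.796), and none of these passed after adjustment. Without the 2 farthest libraries r was 0.30, −0.05 and 0.12 for these 3 receptors. After centring on the group means, Ntrk2 rose with the neocortical list (r = 0.70, permutation p = 0.00290 before adjustment, and rho = 0.63, p = 0.0107), with r of 0.58 without the 2 farthest libraries. The centred r was −0.49 for Ntrk3 (permutation p = 0.0534) and −0.17 for Sort1 (p = 0.541), also before adjustment. The part of carried-over tissue in the striatal Ntrk2 values was not tested. In replicates 1 and 2 alone r was 0.72 for Ntrk2, −0.25 for Ntrk3 and 0.18 for Sort1, and within replicates 3 and 4 it was −0.05, −0.65 and −0.39. In replicates 1 and 2 without the 2 farthest libraries, r was −0.11, −0.39 and −0.20, so the value of 0.72 for Ntrk2 rests on those libraries. Spearman's rho for Ntrk2 in replicates 1 and 2 was 0.52 (permutation p = 0.197).

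No drug effect on striatal Bdnf was called in the fit of all 16 libraries. The log2 fold change was −0.19 after CFC (SE 1.17, approximate 95% interval −2.48 to 2.10, adjusted p = 0.927). It was 3.20 without vehicle CFC replicate 3 (adjusted p = 0.0607) and 2.56 without both libraries that stood apart (adjusted p = 0.142). It was 0.18 without HDACi CFC replicate 1 (adjusted p = 0.936) and 0.21 without HDACi CFC replicate 3 (adjusted p = 0.924). After context it was −3.00 (SE 1.40, −5.75 to −0.25, adjusted p = 0.132), with Bdnf of vehicle mice high in the same replicates 1 and 4 that were high in Slc17a7. The context effect was called with the 2 groups fitted alone (−3.01, adjusted p = 0.0147) and without the libraries that stood apart (−3.03, adjusted p = 0.0336). The striatum libraries that stood apart were both CFC libraries. Leaving them out changed the estimate of spread and removed no context library, so vehicle context replicates 1 and 4 stayed in both fits. Within replicates 1 and 2 the CFC value was 3.72 and within replicates 3 and 4 it was −1.28, neither called. Within the same sets the context value was −2.99 and −3.04. The difference between regions in the drug effect on Bdnf was 0.65 after CFC (SE 1.09, adjusted p = 1.00) and 3.58 after context (SE 1.32, adjusted p = 0.362).

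Ntf3 was close to 0 in striatum and was not tested there. Its counts were 0 to 9 reads per library except for HDACi CFC replicate 2, with 43 reads (1.52 CPM), one of the libraries that stood apart.

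Between regions the neurotrophins differed most. In vehicle context mice Bdnf averaged 52.4 ± 4.59 CPM in hippocampus and 4.46 ± 4.09 CPM in striatum (SD, n = 4 each; log2 fold change 3.51, SE 0.81, adjusted p = 0.000644). In vehicle CFC mice it averaged 53.1 ± 10.3 and 4.68 ± 8.46 CPM (log2 fold change 3.47, adjusted p = 0.000773). Without striatum vehicle CFC replicate 3, which stood apart, that log2 fold change was 6.86 (adjusted p = 1.65e-07), and within replicates 3 and 4 it was 2.40 and not called (adjusted p = 0.0841). The lowest hippocampus library of all groups had 45.4 CPM, against 17.4 CPM in the highest striatum library. In HDACi context mice, whose striatum libraries were all low, the summed counts of Bdnf were 8493 in hippocampus and 64 in striatum, a ratio of 145 after division by library totals (exact 95% interval 113 to 188, counting error only). The same ratio was 11.5 in vehicle context mice (10.6 to 12.5).

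Ntf3 had 584 summed counts in hippocampus and 4 in striatum of vehicle context mice, a ratio of 151 (59 to 558), with an exact 95% interval for counting error only. In vehicle CFC mice it had 581 and 11, a ratio of 46.1 (25.6 to 92.9), and 9 of the 11 reads were from striatum replicate 3, a library that stood apart. Without that library, a choice made after seeing the data, 2 reads remained and the ratio was 190 (52.5 to 1576). In HDACi CFC mice the counts were 884 and 49, a ratio of 16.3 (12.2 to 22.2), and without striatum replicate 2, with 43 of the 49 reads, it was 100.4 (45.9 to 274). Sort1 averaged 878 ± 33.7 CPM in hippocampus and 537 ± 12.3 CPM in striatum of vehicle context mice (log2 fold change 0.68, SE 0.06, adjusted p = 2.62e-10). Ntrk2 was 676 ± 29.2 and 705 ± 26.0 CPM, and was not called (−0.09, SE 0.06, adjusted p = 0.213), although it was called lower in hippocampus with offsets for GC content and length (−0.20, adjusted p = 0.000554). Ntrk3 was 344 ± 30.9 and 297 ± 28.0 CPM (0.18, SE 0.10, adjusted p = 0.136), with −0.09 under the same offsets. In vehicle CFC mice the Ntrk3 difference was 0.19 (adjusted p = 0.120), and it was called without hippocampus vehicle CFC replicate 2 (0.27, adjusted p = 0.0234). So 3 of the 5 genes, Bdnf, Ntf3 and Sort1, were called higher in hippocampus in each behaviour. Ntf3 did not pass the count filter in striatum and entered this fit through its hippocampus counts. Its direction was therefore set by the filter, and its call adds no evidence. Over all genes, 24.2% of 19198 were called higher in vehicle context mice and 24.5% in vehicle CFC mice.

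The order of the 8 groups differed by gene. Bdnf and Ntf3 ran in the same first steps, from hippocampus HDACi context (74.7 and 7.53 CPM) and HDACi CFC (70.5 and 6.86 CPM) to the hippocampus vehicle groups and then the striatum groups. Each HDACi pair differed by less than 1 SD, each vehicle pair likewise, and the steps from hippocampus HDACi to vehicle and from hippocampus to striatum were larger than the SD of either neighbour, while no step among the striatum groups was. Sort1 had hippocampus HDACi context at the top (979 ± 36.0 CPM) and striatum vehicle CFC at the bottom (534 ± 40.7 CPM). Its hippocampus vehicle groups differed by less than 1 SD, as did its striatum HDACi groups and its striatum vehicle groups. Ntrk2 ran from striatum HDACi CFC (781 ± 66.4 CPM) to hippocampus vehicle CFC (666 ± 39.0 CPM), and of its 7 neighbouring steps only that from hippocampus HDACi CFC to hippocampus HDACi context exceeded 1 SD. Ntrk3 ran from hippocampus HDACi context (350 ± 24.7 CPM) to striatum vehicle CFC (282 ± 12.0 CPM) with no neighbouring step beyond 1 SD.

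Per kilobase of exon, scaled to the same total in each library as TPM are, the genes could be set beside each other. The median level on this scale over 16 hippocampus libraries was 403 for Sort1, 119 for Ntrk2, 37.0 for Ntrk3, 33.1 for Bdnf and 11.3 for Ntf3. In striatum it was 223 for Sort1, 111 for Ntrk2, 29.6 for Ntrk3, 0.282 for Bdnf and 0.0616 for Ntf3. The lengths are the summed exons of all annotated transcripts, so values of Ntrk2 and Ntrk3, with 19292 and 30170 such bases, may understate genes whose long transcripts are little used.

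Fear conditioning itself was compared with context within each drug. No gene, among these or any of those tested, was called by edgeR for CFC over context or for the interaction of drug and behaviour in either region, with 188 genes at an unadjusted p under 0.05 in vehicle and 775 in HDACi mice in hippocampus. In striatum those numbers were 216 and 988, and for the interactions they were 390 in hippocampus and 380 in striatum. For vehicle mice they lay below the share of 0.05 that a calibrated test passes when nothing differs. Same-numbered hippocampus libraries of vehicle mice deviated together in this comparison (lowest correlation 0.22), and the main fit has no block. The lack of calls therefore does not show that conditioning had no effect. DESeq2's Wald test called 2 genes in striatum of HDACi mice, 1 for the interaction in hippocampus and 0 in the other 4. Hippocampal Bdnf differed between CFC and context by 0.01 in vehicle mice (approximate 95% interval −0.26 to 0.28) and by −0.11 in HDACi mice (−0.38 to 0.16). Ntf3 differed by −0.09 (−0.35 to 0.17) and −0.16 (−0.41 to 0.10). The drug effect on Bdnf after CFC minus that after context was −0.12 (−0.50 to 0.26), and on Ntf3 −0.07 (−0.44 to 0.30). An effect of conditioning on Bdnf above 0.28 or below −0.26 in vehicle mice is outside its approximate interval.

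Other genes of the pathway were read from fixed lists. The counts of each list below stand beside the shares over all genes tested, which in hippocampus were 7.42% higher and 13.4% lower after CFC and 6.55% higher and 13.2% lower after context. In striatum they were 9.57% higher and 14.6% lower after CFC and 10.3% higher and 14.5% lower after context. A count near these shares is not a result about its list. Among sorting receptors related to sortilin, Sorl1 rose by 0.25 in striatum after each behaviour. Sorcs1 had a median of 12.8 CPM in hippocampus and 92.1 CPM in striatum.

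Among 20 regulators of Bdnf transcription, 2 rose and 5 fell in hippocampus after CFC and 2 rose and 4 fell after context. In striatum 3 rose and 4 fell after CFC and 1 rose and 4 fell after context. Rest, a repressor of neuronal genes known to act on Bdnf, fell to 3.01 ± 0.431 CPM in hippocampus HDACi CFC libraries, against 7.30 ± 0.691 CPM in vehicle CFC libraries (log2 fold change −1.21, adjusted p = 9.05e-06). After context it was 2.38 ± 0.413 CPM with HDACi and 6.79 ± 0.273 CPM with vehicle (−1.42). Its fall after CFC in striatum was 1.19 on the log2 scale. Ep300, an acetyltransferase and coactivator, fell by 0.60 and 0.70 in hippocampus after CFC and context and by 0.45 and 0.55 in striatum. The median log2 fold change of the list lay between −0.04 and 0.01, against 0.01 to 0.03 over all genes tested.

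Of 25 genes known to respond to Bdnf, 7 rose and 0 fell in hippocampus after each behaviour, while 4 rose and 0 fell in striatum after CFC and 2 rose and 0 fell after context. Over all genes tested 7.42% and 6.55% were higher in hippocampus, and 9.57% and 10.3% in striatum. The list medians were 0.28 and 0.20 in hippocampus and 0.31 and 0.02 in striatum. Ptgs2, the inducible prostaglandin synthase, averaged 101 ± 3.02 CPM in hippocampus HDACi CFC libraries, against 42.1 ± 8.91 CPM in vehicle CFC libraries, and 99.7 ± 24.1 CPM with HDACi after context, against 43.2 ± 5.93 CPM with vehicle. Plk2, a kinase of active synapses, averaged 420 ± 39.6 CPM in striatum HDACi CFC libraries, against 245 ± 9.77 CPM in vehicle CFC libraries (log2 fold change 0.87). Dusp6, a phosphatase that dampens ERK, rose by 0.85 in hippocampus after CFC. These genes also respond to many other signals.

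Of 18 genes that process or release the precursors, 1 rose and 1 fell in hippocampus after CFC and 3 rose and 1 fell after context. In striatum 2 rose and 1 fell after CFC, and 1 rose and 0 fell after context. The convertase gene Pcsk7 fell by 0.54 and 0.56 in hippocampus after CFC and context.

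Of 48 adaptors and kinases of Trk signalling, 3 rose and 6 fell in hippocampus after CFC, 4 and 6 after context, and in striatum 6 and 11 after CFC and 7 and 8 after context. Crkl, an adaptor protein, had the smallest adjusted p of the list in all 4 comparisons and fell by 0.64 and 0.65 in hippocampus and by 0.73 and 0.80 in striatum. The medians of this list were within 0.04 of 0. Of 13 genes of p75 and sortilin signalling 0 were called in hippocampus. In striatum 1 rose and 1 fell after CFC, and 0 rose and 2 fell after context, among them Ripk2, a kinase that binds p75, with −0.51 and −0.45.

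The genes with the most similar pattern were taken per region, by Pearson's r of log2 CPM over 16 libraries, as a description. In hippocampus they were Slc7a14 (r = 0.97), Btbd3 and Tspan5 for Bdnf, and Mrtfb (0.97), Add2 and Dusp18 for Ntf3. For the receptors they were Fam198b (0.95), Pdgfra and Rora for Ntrk2, Pclo (0.97), Nsd3 and Ccnt2 for Ntrk3, and Hivep2 (0.96), Celf1 and Epha4 for Sort1. In striatum they were Nr4a2, Cck and C1ql3 for Bdnf, with no r given because the libraries fell into separate high and low sets. Nr4a2 was 34.7 to 53.6 CPM in vehicle CFC replicate 3 and vehicle context replicates 1 and 4, against 1.08 to 6.45 CPM in the other vehicle libraries. For Ntrk2 they were Enah (0.95), Srgap3 and Xpr1, for Ntrk3 Grm7 (0.95), Huwe1 and Dgkh, and for Sort1 Kcna1 (0.96), Ceacam1 and Tbl1x. Each r shares the drug groups, and libraries share their depth and composition: after centring on the group means, r was 0.94 for Slc7a14 and 0.82 for Mrtfb.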

How the data were processed

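RNA was measured as polyadenylated, strand-marked libraries of 100-base read pairs, per the labels' protocols. The authors deposited raw read counts per gene. Per the submitters' processing notes the tools were bcl2fastq 2.20.0, STAR 2.6 and DESeq2 with the mm10 build; the counting step was not given in the sources used here. Antisense genes overlap exons of Bdnf (Gm45346, 896 bases) and Sort1 (Gm12523, 338 bases), so reads of those stretches may be shared. Of 54146 gene IDs 54079 matched GENCODE M21, the remaining 67 taking up to 0.0264% of counts in a library. Replicates differed beyond sampling noise (chi-square over its degrees of freedom, 5.77 to 67.7).

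Each region's 16 libraries were fitted with edgeR 4.0.16 in R 4.3.3 (TMM scaling, filterByExpr, 4 group means, quasi-likelihood F test, two-sided, Benjamini-Hochberg over all genes tested), leaving 18261 genes in hippocampus and 18256 in striatum. Contrasts across regions used all 32 libraries (19198 genes). Intervals of log2 fold changes are 1.96 standard errors on each side. They are approximate and somewhat narrower than the F test implies. Permutation tests used 100000 resamples, two-sided. The fits were tested on simulated data, with 50 changed genes of mixed level for each fold. In hippocampus 12% of 1.25-fold, 30% of 1.35-fold and 92% of 2-fold changes were called. In striatum it was 6%, 22% and 96%, and for the region difference of the drug effect 0%, 8% and 90%. A missing call on a small effect therefore does not show that it was absent. Alternatives were DESeq2 1.42.0 (size factors and Wald test), library totals, no filter on low counts, 2 groups only, a replicate block, a batch term, replicate subsets, GC content and length offsets, no libraries that stood apart, and leaving out each library. A correlation over all 16 striatum libraries was planned for Bdnf and replaced by one within the low set, since the values fell into separate sets.

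The 5 genes, the lists and the tests were chosen with earlier results of these data known. The 5 genes are named in every comparison, from each pathway list the 2 genes with the smallest adjusted p under 0.05 may be named, and 3 similar genes are named per member and region. Slc17a7, Tbr1, Neurod6 and Sorcs1 were named after their values were seen. Some genes of the lists are not reported here. Same-numbered libraries deviated together in every pair (correlation of deviations over 0.1) for HDACi over vehicle after context in hippocampus (lowest 0.62) and striatum (lowest 0.25), CFC over context in hippocampus vehicle mice (0.22), and hippocampus over striatum in vehicle context (0.52) and vehicle CFC mice (0.35), but not for the drug effect after CFC (lowest 0.034 in hippocampus and −0.089 in striatum); the numbers come from the labels, which do not say what they share. The block changed no call of the 5 genes in the conditioning or region comparisons.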

Additional observations from a re-analysis of the deposited data

Results flagged for a closer look

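Of 40 sets of 4 libraries (5 genes in 8 groups), 2 held a library far from the other 3 by Dixon's test, and chance alone gives about 1 in 20. Bdnf in striatum vehicle CFC replicate 3 was 17.4 CPM, against 0.210 to 0.656 CPM in the other 3 libraries, a gap of 0.974 of the group's range. The same library had the highest Slc17a7 of the striatum, 348 CPM. Ntf3 in striatum HDACi CFC replicate 2 was 1.52 CPM, against 0.0351 to 0.128 CPM in the other 3, a gap of 0.937 of the range. That library had the lowest medium spiny neuron sum, 9213 CPM, and its Slc17a7 was 257 CPM. The part of carried-over tissue in both values was not tested.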

How the results depend on the processing

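For the 4 drug comparisons and the region contrast in vehicle context mice, 23 gene effects were recomputed under 11 other settings and without each library. Of 253 values under other settings 207 kept direction and call, 28 lost and 11 gained a call and 7 changed sign; without 1 library 168 of 184 were kept. In hippocampus Bdnf was lost with replicates 1 and 2 only (0.38 after CFC and 0.44 after context), and without 1 library its effect was 0.41 to 0.62 after CFC and 0.51 to 0.70 after context. Ntrk3 changed sign with GC content and length offsets (hippocampus CFC −0.017, region contrast −0.090). Striatal Bdnf after CFC changed sign with a replicate block (0.61), a batch term (0.34), replicates 1 and 2 only (3.72), GC content and length offsets (0.021) and no libraries that stood apart (2.56), and ran from −0.83 to 3.20 without 1 library. After context it was called with 2 groups only (−3.01) and with no libraries that stood apart (−3.03), and ran from −3.41 to −2.40 without 1 library. Neither of these settings removed a context library. Of the 4 genes called in hippocampus after CFC, 2 were called with library totals, no filter, replicates 3 and 4 only or 2 groups only, and 0 with replicates 1 and 2 only; without 1 library it was 2 to 4. After context 0 were called with replicates 1 and 2 only. In striatum after CFC, in place of 2, there were 0 with library totals or either replicate subset and 1 with no filter or 2 groups only, and 1 to 3 without 1 library. After context, in place of 1, there were 2 with a replicate block, a batch term, no libraries that stood apart, 2 groups only or the DESeq2 Wald test, and 0 with replicates 1 and 2 only. The cause of these changes was not tested, except that subsets hold fewer libraries. In the paired comparisons after context the block moved the call of Ntrk2 and no other of these genes. Within the low striatal set, r of Bdnf with the neocortical markers was 0.81, and 0.76 with the forebrain excitatory list and 0.81 with library totals. Low counts limit striatal Bdnf and Ntf3.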
